A study of Homo sapiens with 6 samples.

Results

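The 37 genes described here are glial, progenitor, neuronal and mesenchymal markers used to describe the state of glioblastoma cells, out of 20979 gene symbols listed in at least 1 library. They were taken by symbol with no filter on their values, though earlier results of these data were known. They fall into 6 astroglial genes, 5 progenitor genes, 6 oligodendrocyte precursor or proneural genes, 4 neuronal genes and 16 mesenchymal genes. All 6 libraries come from A172, an established human glioblastoma line, so 1 line stands for the tumour type. Cells were transfected by lipofection with a control miRNA (control), with a duplex named for miR-324-5p (5p duplex) or with one named for miR-324-3p.1 (3p.1 duplex), with 2 libraries in each group. RNA was taken 1 day after transfection from cells grown in DMEM with serum, and no group was left untransfected among the samples used here. Nothing in the labels says whether the 2 libraries of a group are separate cultures. The p-values therefore speak of these libraries and their spread, which may be technical.

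Glioblastomas are often described by how closely their RNA resembles cell types of the developing brain. Astrocyte-like tumour cells express GFAP and glutamate transporters, cells like oligodendrocyte precursors express OLIG1 and OLIG2, progenitor-like cells express nestin and SOX2, and mesenchymal-like cells express vimentin, CD44, matrix proteins and annexins. The mesenchymal state is associated with a small set of transcription factors, among them STAT3, the C/EBP proteins, RUNX1 and the AP-1 subunits FOSL1 and FOSL2.

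A miRNA finds its targets mainly through its seed, bases 2 to 8, which pairs with a complementary stretch of a 3′UTR. The mature arms of miR-324 are shown because the duplexes are named for them. The sequences and positions are those of RefSeq for GRCh38.p14, where the 5p arm lies at chr17:7223343-7223364 and the 3p arm at chr17:7223308-7223330, both on the minus strand, written 5′ to 3′ with the seed in capitals.
miR-324-5p: cGCAUCCCcuagggcauuggug
miR-324-3p: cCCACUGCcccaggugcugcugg
The arms share no seed, and the sites that pair with them read GGGATGC for the 5p arm and GCAGTGG for the 3p arm. The labels do not give the base at which 3p.1 starts. A 3p strand that starts at base 2 of the RefSeq arm would pair with GGCAGTG, and one that starts at base 4 would pair with GGGGCAG, so all 3 were searched.

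Levels are in TPM, which divides each gene's share of the reads by its length, so they can be compared between genes. Between 13216 and 13536 genes reached 1 TPM in a library. Depth is unknown, because TPM keeps no read number. In these bulk libraries fewer cells of a type and less RNA per cell cannot be told apart. A panel of 12 interferon-induced genes summed to 877 and 2682 TPM in the control libraries against 207 to 260 TPM in the 4 duplex libraries, so the controls stood apart from the duplex libraries and from each other.

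Nearly all mesenchymal genes of the 37 were present, a few of them among the most abundant transcripts of the cells, and no astroglial gene of the 37 was. A gene was counted as present where it reached 1 TPM in all 6 libraries, and 24 of the 37 genes did. Of the mesenchymal genes 15 of 16 were present, and together the 16 held 2.07% to 2.54% of all TPM in a library, with SPARC, VIM and ANXA2 the most abundant. Of the 21 lineage genes 9 were present, and they held 0.107% to 0.116%. The genes nearest the limit were CEBPD, BCAN and SOX2 above it, with lowest values of 1.32, 1.38 and 1.75 TPM, and MAP2 below it, with a highest value of 0.87 TPM.

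The matrix and secreted genes of the mesenchymal set ranged from SPARC near the top of all genes to TNC under 1 TPM. SPARC, a secreted glycoprotein that binds collagen, stood at 6640 and 10284 TPM in the control libraries, 6457 and 10082 TPM with the 5p duplex and 6240 and 9334 TPM with the 3p.1 duplex. It ranked 2 by mean TPM among all symbols. LGALS1, which encodes galectin-1, a secreted lectin that binds galactosides, ranged from 1749 to 2204 TPM. TIMP1, an inhibitor of matrix metalloproteinases, ranged from 316 to 451 TPM. The other 3 genes of this role were far lower. FN1, which encodes the matrix protein fibronectin, stood at 10.1 to 16.6 TPM, and CHI3L1, a secreted chitinase-like protein widely used as a mesenchymal glioblastoma marker, at 1.91 to 2.91 TPM. TNC, which encodes the matrix protein tenascin-C, was the mesenchymal gene that missed the limit, at 0.14 to 0.46 TPM.

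All 4 cytoskeleton and membrane genes of the mesenchymal set were abundant. VIM, which encodes the intermediate filament protein vimentin, stood at 4788 and 5670 TPM in the control libraries, 5423 and 5910 TPM with the 5p duplex and 5076 and 5765 TPM with the 3p.1 duplex, and ranked 6 by mean TPM. ANXA2, a calcium-dependent membrane-binding protein, ranked 11, at 3592 to 4329 TPM over the 6 libraries. Its relative ANXA1 ranged from 1512 to 1771 TPM, and CD44, the hyaluronan receptor, from 708 to 929 TPM. These 4 genes varied little: the highest library was 1.17 (ANXA1) to 1.31 (CD44) times the lowest.

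The 6 transcription factors of the mesenchymal set were all present, over a wide range of levels. FOSL1, an AP-1 subunit, stood at 138 to 198 TPM, and BHLHE40, a basic helix-loop-helix repressor linked to hypoxia and the clock, at 126 to 165 TPM. STAT3, which carries signals of the IL-6 cytokine family to the nucleus, stood at 80.4 to 117 TPM and RUNX1, a Runt-domain factor, at 62.1 to 78.6 TPM. FOSL2, another AP-1 subunit, ranged from 23.1 to 29.02 TPM. CEBPD, which encodes C/EBP delta, was the lowest of the 6, at 1.32 to 3.66 TPM.

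Among the lineage genes the progenitor role was the most complete, with 4 of 5 genes present. NES, which encodes the intermediate filament nestin, stood at 90.9 to 133 TPM, and SOX9, a factor of glial progenitors, at 30.7 to 48.6 TPM. SOX4, a factor of immature neural cells, ranged from 8.18 to 11.1 TPM. SOX2, a core factor of neural stem cells, was low, at 3.29 and 1.75 TPM in the control libraries, 2.73 and 2.45 TPM with the 5p duplex and 2.53 and 2.13 TPM with the 3p.1 duplex. PROM1, the gene of the CD133 surface protein, did not pass 0.12 TPM in any library.

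The oligodendrocyte precursor role was split. CSPG4, which encodes the NG2 proteoglycan of precursors and pericytes, stood at 67.9 to 102 TPM. OLIG2, the basic helix-loop-helix factor of this lineage, was present at 2.75 to 4.98 TPM, while OLIG1, the related factor, was listed in no library. BCAN, which encodes the brain proteoglycan brevican, stood at 1.38 to 2.10 TPM. PTPRZ1, a receptor phosphatase of precursors, and DLL3, a Notch ligand of proneural tumours, reached at most 0.02 and 0.06 TPM.

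Of the neuronal role, 2 of 4 genes were present. STMN1, which encodes the microtubule destabilizer stathmin and is high in dividing cells generally, stood at 507 to 642 TPM. TUBB3, the class III beta-tubulin, stood at 246 to 302 TPM. In the annotation used, GENCODE 29, TUBB3 shares exons with AC092143.1, a protein-coding gene on the same strand, so reads could be divided between them. MAP2, a dendritic microtubule protein, stood at 0.48 to 0.87 TPM, and DCX, the doublecortin of migrating neurons, was listed in no library.

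None of the 6 astroglial genes was present. GFAP, the astrocyte intermediate filament, stood at 0.22 and 0.05 TPM in the control libraries, 0.09 and 0.25 TPM with the 5p duplex and 0.15 and 0.17 TPM with the 3p.1 duplex. ALDH1L1, a folate enzyme of astrocytes, ranged from 0.08 to 0.32 TPM. The glutamate transporter genes SLC1A2 and SLC1A3 and FABP7, the fatty acid binding protein of radial glia, stayed at or under 0.03 TPM. AQP4, the water channel of astrocyte endfeet, was listed in no library. Summed over the role, the libraries held 0.21 to 0.60 TPM. Without reads, these low values cannot be given an interval.

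**Figure D1:**
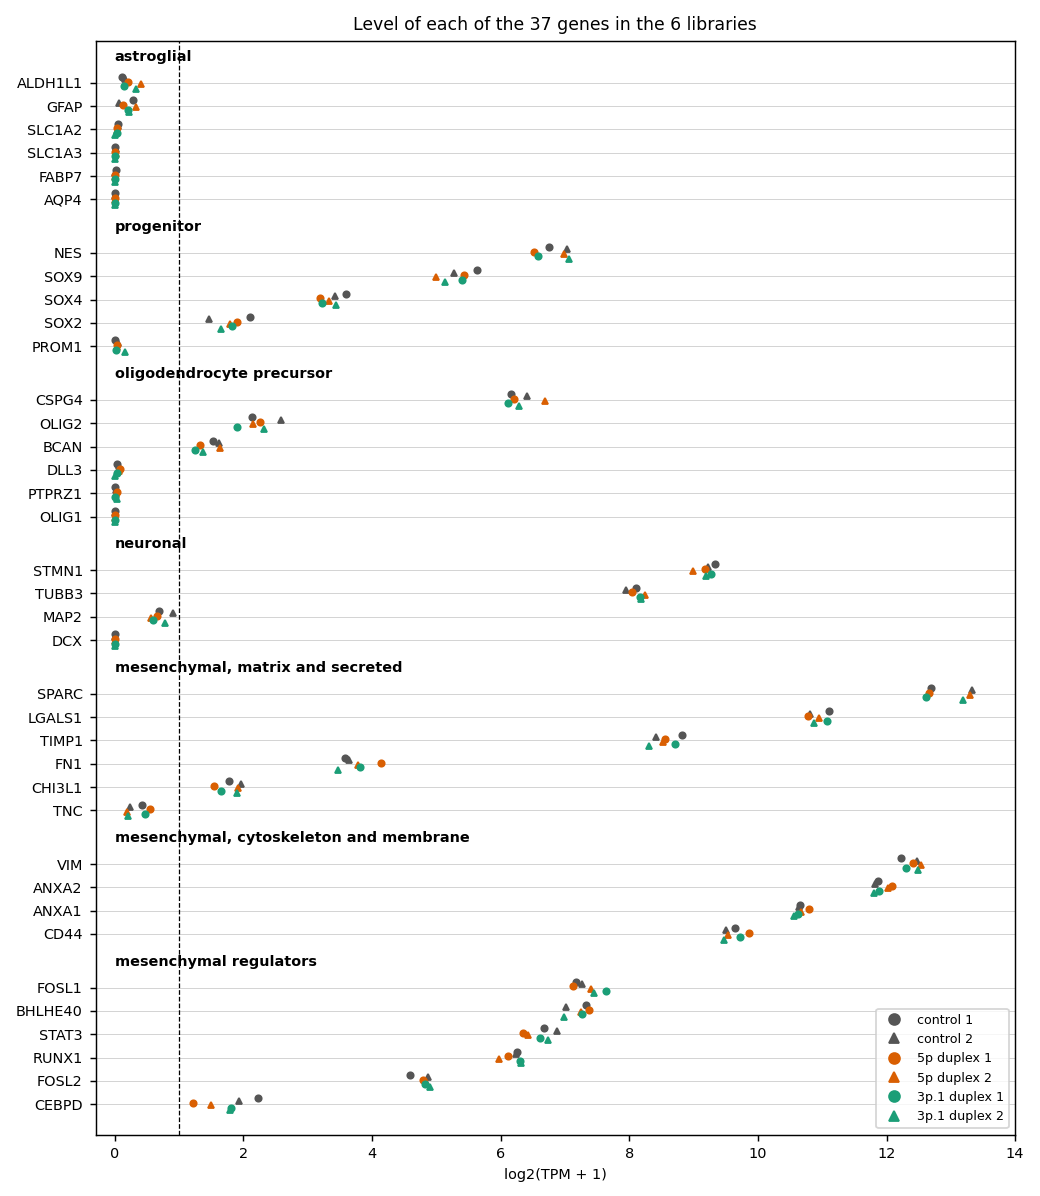
Level of each of the 37 genes in each library, as log2(TPM + 1), by role; colour gives the group, circles are libraries numbered 1 and triangles libraries numbered 2, and the dashed line marks 1 TPM. SPARC, VIM and ANXA2 sit at the right end, and all 6 astroglial genes lie left of the line.

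Among other genes of the same programs, nearly all mesenchymal genes were present and the lineage lists were less complete. These further lists were drawn up with earlier results of these data known, so their counts are no independent check on the members. Of 34 further mesenchymal genes 31 were present, among them ITGB1 (1205 to 1596 TPM), an integrin subunit. Of 16 further astroglial genes 10 were present, led by CLU (170 to 242 TPM) and CST3 (118 to 150.02 TPM), both secreted proteins made by many cell types. The others present were GJA1 (42.6 to 53.1 TPM), ID3 (31.4 to 54.9 TPM), GLUL (17.1 to 22.9 TPM), NDRG2, FGFR3, ALDOC, NFIB and HES1. SPARCL1, APOE, NFIA, HEPACAM and ID4 missed the limit, and S100B was listed in no library. Further progenitor genes were present in 15 of 20 cases, oligodendroglial or proneural genes in 7 of 18 and neuronal genes in 9 of 20. Their summed levels were 702 to 859 TPM, 142 to 196 TPM and 2122 to 2389 TPM in turn. The most abundant of the neuronal list were UCHL1 (1123 to 1292 TPM) and DPYSL3 (514 to 784 TPM). Markers of other cell types gave mixed values. Of 10 microglial or macrophage genes 2 were present, with a summed level of 42.8 to 69.3 TPM. These were the lysosomal protein CD68 (32.7 to 60.2 TPM) and PTPRC, the gene of the leukocyte marker CD45 (5.52 to 7.48 TPM). CSF1R and CD14 lay near 1 TPM, while AIF1 and TYROBP were listed in no library. Of 7 endothelial genes 2 were present, TEK and FLT1, with a summed level of 16.5 to 27.7 TPM. Of 6 epithelial genes 5 were present at a summed level of 930 to 1359 TPM, nearly all of it from the keratin genes KRT18 and KRT8, and CDH1, the gene of E-cadherin, reached at most 0.17 TPM.

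The first comparison asked how the members differed between the 5p duplex and the control. Tests used log2(TPM + 1) in limma over the 13400 genes whose mean reached 1 TPM, and a gene was called where its two-sided p, adjusted by Benjamini-Hochberg over these genes, was under 0.05. The 24 genes present were also the 24 tested. None was called in either direction (limma), against 62 genes or 0.463% of all genes tested, 0.425% lower and 0.0373% higher. At an unadjusted p under 0.05 stood 2 members, CEBPD and STAT3, where 9.16% of all genes did. The median log2 difference was -0.06 over the members and -0.03 over all genes. The 95% interval of the difference lay within a 2-fold change of TPM + 1 in either direction for 23 of 24 members, all but CEBPD. For genes of a few TPM such an interval can hold a larger change of TPM itself.

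The log2 differences from control were lowest for CEBPD and STAT3, followed by the progenitor genes SOX9 and SOX4 (both -0.25) and by RUNX1. The 6 mesenchymal regulators were 3 lower and 3 higher, with a median of -0.08. STAT3 (chr17:42313324-42388568, minus strand, GRCh38) stood at 101 and 117 TPM in the control libraries, 80.4 and 85.2 TPM with the 5p duplex and 96.8 and 105 TPM with the 3p.1 duplex. Both 5p duplex libraries were the lowest of the 6 and did not overlap either other group. The log2 difference from control was -0.39 (SE 0.10, 95% interval -0.64 to -0.14, limma adjusted p = 0.266). With the library number as a block the same difference had a limma adjusted p of 0.0476 and was called, 1 of 24 members where 2.74% of all genes were called in that fit. In the other alternatives the limma adjusted p ran from 0.218 to 0.749. The interferon panel moved with this comparison, being lower in both duplex groups. Between the duplexes its genes differed by -0.69 (USP18) to 0.22 (MX1), with a median of 0.01, and none was called (limma). STAT3 differed there by -0.28 and was not called either (limma adjusted p = 0.478). The part of the panel in either STAT3 difference was not tested.

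CEBPD stood at 3.66 and 2.82 TPM in the control libraries, 1.32 and 1.83 TPM with the 5p duplex and 2.51 and 2.45 TPM with the 3p.1 duplex. The 3 groups did not overlap, with the 5p duplex libraries lowest and the controls highest. The ratio of mean TPM between 5p duplex and control was 0.486, and the log2(TPM + 1) difference was -0.72 (SE 0.17, 95% interval -1.14 to -0.30, limma adjusted p = 0.209). It was not called in any of the 14 alternatives in which it was tested. CEBPD ranked 11982 by mean TPM, close to the 1 TPM minimum.

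RUNX1 (chr21:34787801-36004667, minus strand) stood at 75.2 and 74.8 TPM in the control libraries, 68.0 and 62.1 TPM with the 5p duplex and 77.6 and 78.6 TPM with the 3p.1 duplex. Here too both 5p duplex libraries lay under all others. The log2 difference from control was -0.20 (SE 0.09, limma adjusted p = 0.56).

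The other 3 regulators, FOSL1, FOSL2 and BHLHE40, overlapped between 5p duplex and control. Among cytoskeleton and membrane genes, ANXA2 stood at 3717 and 3612 TPM in the control libraries, 4329 and 4177 TPM with the 5p duplex and 3786 and 3592 TPM with the 3p.1 duplex. Both 5p duplex libraries were above the other 4, with a log2 difference from control of 0.21 (SE 0.09, limma adjusted p = 0.576). FN1 stood at 10.9 and 11.5 TPM in the control libraries and 16.6 and 12.7 TPM with the 5p duplex, a difference of 0.35 (SE 0.17, limma adjusted p = 0.627). In all, 5 members lay wholly below control (STAT3, CEBPD, RUNX1, SOX4 and STMN1) and 3 wholly above (ANXA2, ANXA1 and FN1), or 33.3% of those tested. Among all genes 22.1% lay wholly below and 12.7% wholly above, 34.8% together.

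**Figure D2:**
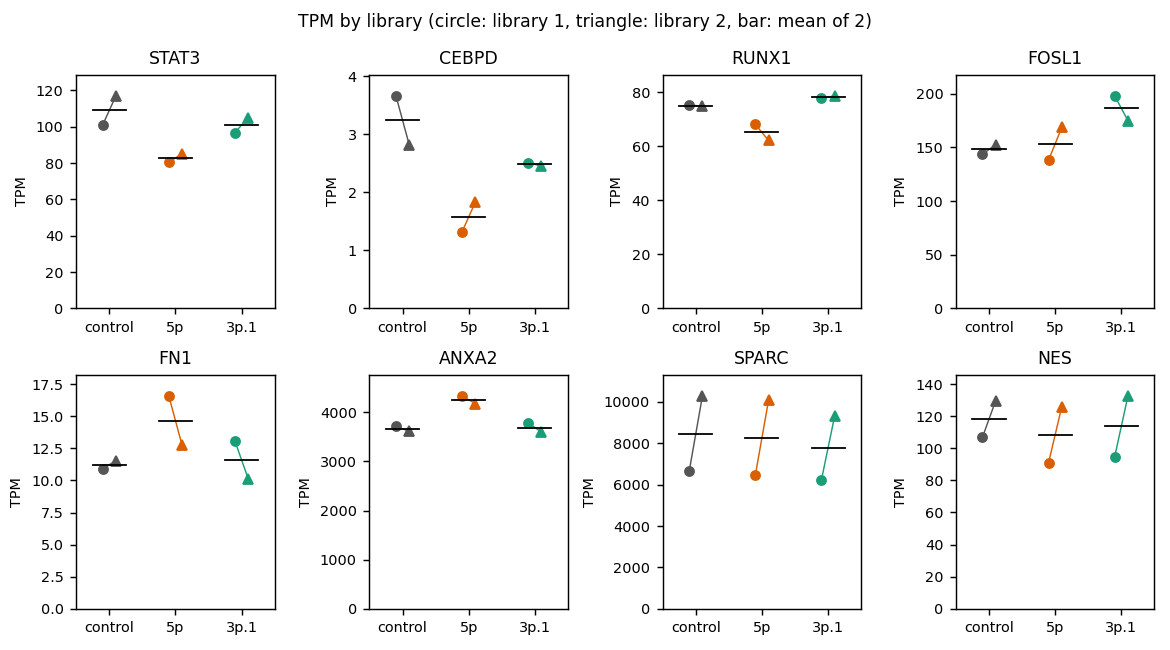
TPM of 8 genes in each library, by group, on linear axes from 0; circles are libraries numbered 1, triangles libraries numbered 2, and black bars the means of 2 libraries. STAT3, CEBPD and RUNX1 are lowest in both 5p duplex libraries, while SPARC and NES separate the library numbers and not the groups.

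With the 3p.1 duplex against control, which shares its control libraries with the comparison above, no member was called (limma), against 2 genes or 0.0149% of all tested, 0.00746% in each direction. With the library number as a block none was called either, where 0.224% of all genes were. FOSL1 was the 1 member at an unadjusted p under 0.05, where 6.86% of all genes stood. It stood at 144 and 153 TPM in the control libraries, 138 and 169 TPM with the 5p duplex and 198 and 175 TPM with the 3p.1 duplex. Both 3p.1 duplex libraries were the highest of the 6, with a log2 difference from control of 0.33 (SE 0.12, 95% interval 0.03 to 0.63, limma adjusted p = 0.675). The interval of every tested member lay within a 2-fold change of TPM + 1, which bounds TPM less tightly for low genes. Members lying wholly below control were CEBPD, BCAN and ANXA1, and those wholly above were FOSL1, RUNX1 and TUBB3, in all 25% of those tested. Among all genes 24.1% lay wholly below and 12.1% wholly above, 36.3% together. The median difference was -0.06 over the members, 0.0031 over the 6 regulators and -0.03 over all genes. The log2 differences of VIM, CD44 and NES were 0.05, 0.01 and -0.07, each smaller than its standard error (0.13, 0.14 and 0.22).

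The duplexes were also compared directly. The control libraries do not enter these differences, but they do enter the spread behind the p-values, since the fit holds all 6 libraries. With only the 2 duplex groups in the fit, 19 genes and no member were called (limma). No member was called (limma), against 58 genes or 0.433% of all tested, 0.351% lower and 0.0821% higher with the 5p duplex. The same held with the library number as a block, where 2.07% of all genes were called. An unadjusted p under 0.05 was reached by 3 members, RUNX1, STAT3 and CEBPD, where 9.34% of all genes reached it. RUNX1 was lower with the 5p duplex by -0.26 (SE 0.09, 95% interval -0.47 to -0.05, limma adjusted p = 0.411). STAT3 differed by -0.28 (SE 0.10, 95% interval -0.54 to -0.03, limma adjusted p = 0.478), and CEBPD by -0.44 (SE 0.17, limma adjusted p = 0.512). FOSL1 differed by -0.28 (SE 0.12, limma adjusted p = 0.561). These 4 regulators and STMN1 were the members whose 5p duplex libraries lay wholly below those of the 3p.1 duplex, and ANXA1 and ANXA2 lay wholly above, together 29.2% of those tested. Among all genes 19.4% lay wholly below and 21% wholly above, 40.4% together. The median was -0.27 over the 6 regulators and -0.0024 over the 24 members, beside 0.01 over all genes. The intervals again lay within a 2-fold change of TPM + 1 for every member tested, with the same limit for low genes.

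**Figure D3:**
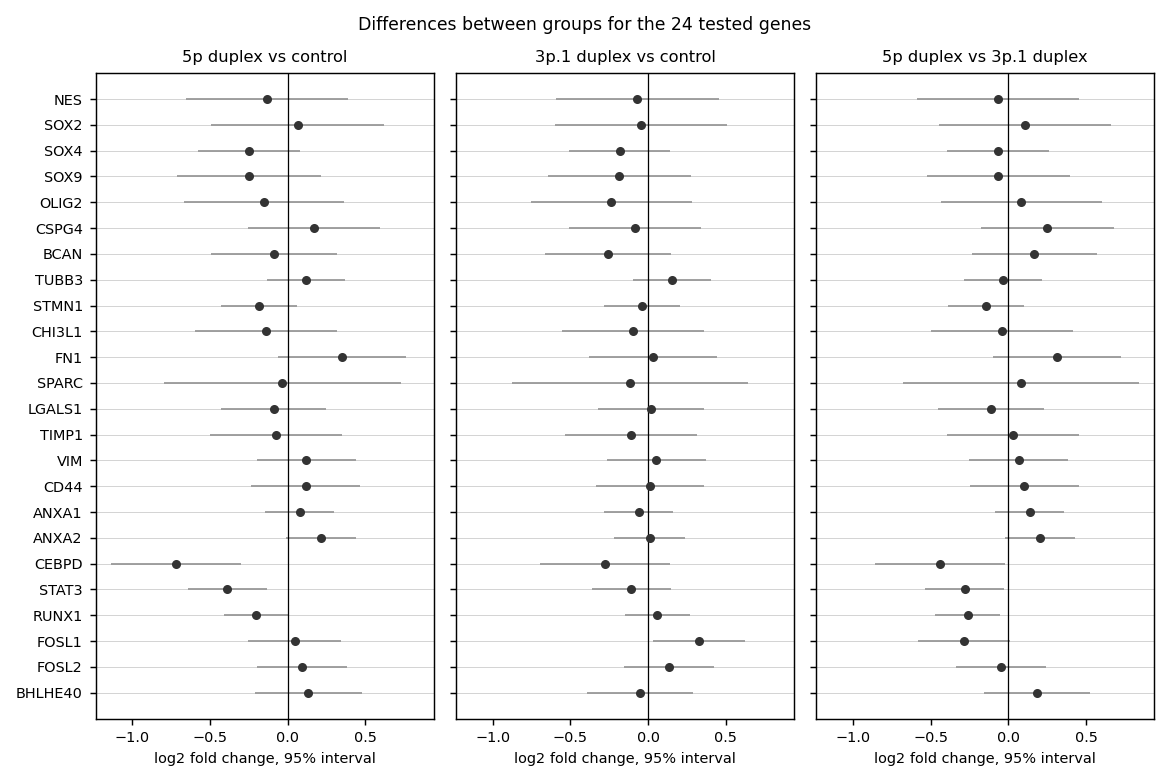
Log2 fold change of the 24 tested genes in each comparison (5p duplex against control, 3p.1 duplex against control, 5p duplex against 3p.1 duplex), with 95% intervals from limma; the vertical line is no difference. The intervals of CEBPD and STAT3 lie wholly left of 0 in the panels of the 5p duplex against control and against the 3p.1 duplex. That of RUNX1 does so only against the 3p.1 duplex. The FOSL1 interval lies wholly right of 0 for the 3p.1 duplex against control, and all other intervals include 0.

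The further program lists had few calls in these comparisons. Of the 31 further mesenchymal genes tested, none was called against control in either direction (limma), with 3 at an unadjusted p under 0.05 for each duplex (9.16% of all genes with the 5p duplex and 6.86% with the 3p.1 duplex), and the median difference was 0.01 with the 5p duplex and -0.02 with the 3p.1 duplex. Between the duplexes 1 of the 31 was called, where 0.433% of all genes were. NNMT, a nicotinamide methyltransferase high in mesenchymal tumours, stood at 104 and 95.2 TPM in the control libraries, 66.3 and 70.7 TPM with the 5p duplex and 111 and 111 TPM with the 3p.1 duplex. It was lower with the 5p duplex by -0.69 (SE 0.09, limma adjusted p = 0.0475), a call that was lost whenever any single library was left out (limma adjusted p = 0.0816 to 0.455) and that held in 3 of 15 alternatives. No gene of the further astroglial, progenitor, oligodendroglial or neuronal lists was called in any of the 3 comparisons (limma). At an unadjusted p under 0.05 they had together 3, 1 and 2 of 41 genes tested with the 5p duplex against control, the 3p.1 duplex against control and between the duplexes, where 9.16%, 6.86% and 9.34% of all genes did. With the library number as a block, 2 of the 31 mesenchymal genes were called lower with the 5p duplex than in control, NNMT and the matrix glycoprotein THBS1 (limma adjusted p = 0.0293 and 0.0457), and 1 of the 41 lineage genes, the neuronal gene DPYSL5 (0.0459), where 2.74% of all genes were called. In the same fit 4 of the 31 differed between the duplexes, NNMT, THBS1 and CTGF lower with the 5p duplex and PLAU, the urokinase gene, higher (limma adjusted p = 0.0164 to 0.0359), where 2.07% of all genes did. Of the 5 epithelial genes tested, CLDN4, a tight junction claudin, was the 1 called, between the duplexes. It stood at 12.4 and 13.98 TPM in the control libraries, 21.8 and 27.4 TPM with the 5p duplex and 11.1 and 10.9 TPM with the 3p.1 duplex, a difference of 1.08 (SE 0.14, limma adjusted p = 0.0445). That call was also lost when any single library was left out (limma adjusted p = 0.0852 to 0.392) and held in 5 of 15 alternatives. With the library number as a block CLDN4 was called between the duplexes and also higher than in control (limma adjusted p = 0.0111 and 0.0205), and KRT18 was called lower with the 5p duplex than with the 3p.1 duplex (0.0375).

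For each arm of miR-324 and each start, a smaller share of the 24 tested members than of all genes held a 3′UTR match. A match here is an 8mer (the 7 bases that pair with the seed, followed by A), a 7mer-m8 (those 7 bases) or a 7mer-A1 (the last 6 of them, followed by A), on the strand of the transcript, in the longest annotated 3′UTR. Of the 24 members tested, 1 matched the 5p arm, RUNX1, where 14.6% of the 11741 tested genes with a 3′UTR did. For the 3p arm 4 members matched at the RefSeq start (32.1% of all genes), 3 at base 2 (30.9%) and 4 at base 4 (28.0%). The median 3′UTR was 1014.5 nt in the members and 1383 nt in all genes, and longer 3′UTRs hold more matches. Of the 13 genes that were not present, 5 matched the 5p arm. For the 3p arm 5 of these 13 matched at the RefSeq start, 3 at base 2 and 5 at base 4. The shares above are of tested genes, and no share was counted over other genes that were not tested. Those of the 13 that matched the 5p arm had 3′UTRs of 1167 nt (PROM1) to 9689 nt (SLC1A2). A link between such matches and absence was not tested.

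The 8mers of listed members are printed with 11 bases on either side, since they are the longest matches and include the only match of a present gene to the 5p arm, with the 8mer in capitals, from GRCh38. DCX and AQP4, which hold others, were listed in no library.
RUNX1: gggggagaggaGGGATGCAactcgccctgt
MAP2: acaaaagccaaGGGATGCAaaggcagagac
STMN1: gtgctgttggtGGCAGTGActtcttttgag
The printed RUNX1 stretch spans chr21:34791669-34791698 on the minus strand, with the 8mer at chr21:34791680-34791687. The MAP2 stretch spans chr2:209732239-209732268 on the plus strand, with the 8mer at chr2:209732250-209732257, and both 8mers read the full complement of the 5p seed. The STMN1 stretch spans chr1:25900546-25900575 on the minus strand, and its 8mer, at chr1:25900557-25900564, pairs with a 3p strand that starts at base 2. RUNX1 was lowest in both 5p duplex libraries without passing the main test, and so were STAT3, CEBPD and STMN1. The share of all genes lowest in both was not counted. With the 5p duplex 22.1% of all genes lay wholly below control and 19.4% wholly below the 3p.1 duplex. MAP2, below the 1 TPM mean and so not tested, stood at 0.61 and 0.87 TPM in the control libraries, 0.57 and 0.48 TPM with the 5p duplex and 0.51 and 0.71 TPM with the 3p.1 duplex. STMN1 stood at 642 and 594 TPM in the control libraries, 580 and 507 TPM with the 5p duplex and 615 and 585.5 TPM with the 3p.1 duplex. It differed from control by -0.04 (SE 0.10, limma adjusted p = 0.987) with the 3p.1 duplex and by -0.19 (SE 0.10, limma adjusted p = 0.6675) with the 5p duplex. STAT3, CEBPD, STMN1 and ANXA2 held no match to the 5p arm of any of these classes.

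The libraries numbered 1 and 2 of a group also differed in some members. In a limma fit with the library number as a block, a comparison added after the data were seen, 4 of 24 members differed between the numbers, where 9.4% of all genes did. In that same fit STAT3 was the 1 member called between transfections, as given above. These were 2 higher and 2 lower in the libraries numbered 2, where 5.81% and 3.58% of all genes were. SPARC (chr5:151661096-151687165, minus strand) was higher in the library numbered 2 of each group, by 1.55, 1.56 and 1.5 times in control, 5p duplex and 3p.1 duplex, a log2 difference of 0.62 (SE 0.04, limma adjusted p = 0.00508). NES stood at 107 and 130 TPM in the control libraries, 90.9 and 126 TPM with the 5p duplex and 94.8 and 133 TPM with the 3p.1 duplex. It was higher in each library numbered 2, by 0.41 (SE 0.06, limma adjusted p = 0.0237).

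In the other direction, SOX9 stood at 48.6 and 37.9 TPM in the control libraries, 41.9 and 30.7 TPM with the 5p duplex and 41.2 and 34.3 TPM with the 3p.1 duplex. It was lower in each library numbered 2, by -0.35 (SE 0.06, limma adjusted p = 0.0315). CD44 was lower in all 3 as well, at 802 and 728, 929 and 738, and 839 and 708 TPM, by -0.24 (SE 0.05, limma adjusted p = 0.0478). Just past the threshold lay VIM, CSPG4 and BHLHE40, with limma adjusted p of 0.0546, 0.0557 and 0.0606. Counting direction alone, 16 of 24 members differed the same way in all 3 groups, 8 higher and 8 lower in the libraries numbered 2, or 66.7% of those tested. Among all genes 29% were higher and 22.4% lower in all 3 groups, 51.4% together. Mesenchymal genes were found in both directions by this count, SPARC and VIM higher, CD44 and TIMP1 lower. Without the 3p.1 duplex libraries SPARC alone was called, without the 5p duplex libraries SPARC, NES, BHLHE40 and TIMP1 were, and without the control libraries CSPG4 and FN1 joined the 4. Quantile normalization lowered the SPARC difference to 0.29 and left it called (limma adjusted p = 0.0338), while CD44 was no longer called (0.0676) and VIM was. VIM was also called with a pseudocount of 0.1. Over the 6 alternatives SPARC was called in 6, NES in 5, SOX9 in 4 and CD44 in 3.

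**Figure D4:**
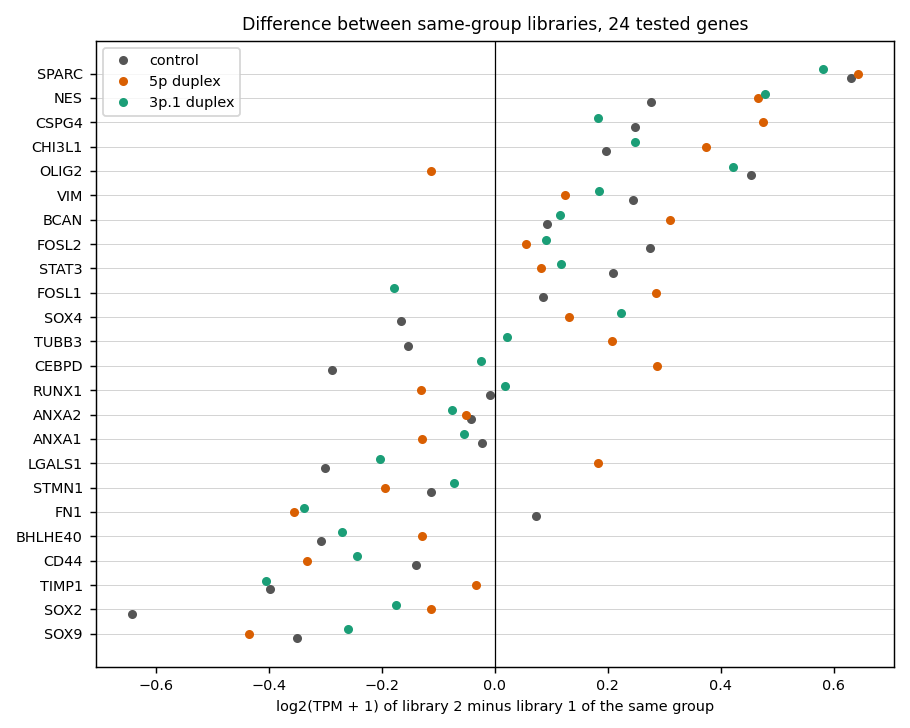
Log2(TPM + 1) of the library numbered 2 minus that numbered 1 of the same group, for the 24 tested genes; colour gives the group. The 3 points of SPARC lie close together at the right (0.58 to 0.64) and those of SOX9 at the left (-0.44 to -0.26), while CEBPD, RUNX1, FOSL1 and TUBB3 lie on both sides of 0.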

How the data were processed

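For each library the authors deposited a table of TPM by gene symbol. RSEM and GRCh38 are named per the submitters' processing notes, and the sources used here give no aligner, annotation or strand setting. Per the labels' protocols, stranded oligo dT libraries were sequenced. Values in a library summed to 1000000, so depth is unknown and no counting interval is given. Unlisted symbols were taken as 0 and repeated symbols (21 to 23 a library) were summed. Log2 fold changes of log2(TPM + 1), which understate the change of low genes, came from limma 3.58.1 in R 4.3.3 on the 13400 genes whose mean reached 1 TPM. The fit used group means over all 6 libraries, a trend on mean expression, and 3 residual and 3.38 prior degrees of freedom. On simulated data the fit recovered 100 of 100 planted changes of 1 log2 unit and called 17 unchanged genes (limma adjusted p under 0.05). The simulated libraries held no difference between library numbers, unlike the real ones, so this outcome gives no error rate for the real libraries. With 2 libraries against 2 an exact permutation test cannot go below p = 0.333, so none was run.

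The labels tie library numbers to no batch. Deviations of same-numbered libraries from their group means correlated across genes at 0.265, 0.375 and 0.383, so a fit with the number as a block was run too. Alternatives varied the pseudocount, the filter, the scaling, the trend, the groups in the fit and the libraries left out. Gene positions and 3′UTRs came from GENCODE 29 on GRCh38. Exons of 7 of the 24 genes present overlap a gene on the opposite strand, with the strand setting of the counting not given. All members are named whatever their values. Other genes are named where their list's test called them, where they are the most abundant of a list, or where a result turns on them. The further astroglial list is named in full. The members and lists were chosen with earlier results of these data known.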

Additional observations from a re-analysis of the deposited data

How the results depend on the processing

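The number of genes called moved with the model more than with the scaling, and of the members STAT3 was the 1 that was called in any alternative to a comparison of transfections. With the library number as a block (pairing by number), limma called 367 genes and 1 member with the 5p duplex against control, 30 genes and no member with the 3p.1 duplex against control, and 278 genes and no member between the duplexes. The block changed no other call of a member. For the 5p duplex against control, 9 genes were called without a filter on low values, 33 without the variance trend and 11 with only the 2 groups compared. For the 3p.1 duplex against control, 0 were called with a pseudocount of 5 (926 at an unadjusted p under 0.05), 0 without a filter (1444 unadjusted) and 18 with only the 2 groups. Between the duplexes, 5 were called without a filter, 5 without the trend and 19 with only the 2 groups.

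Leaving out each library in turn gave 7 (without the first 5p duplex library) to 128 (without the first control) genes for the 5p duplex against control, 5 (without the second 3p.1 duplex library) to 94 (without the first control) for the 3p.1 duplex against control, and 7 (without the first 5p duplex library) to 26 (without the second) between the duplexes, with 0 members called each time. A lone library was assumed to vary like the others. Over up to 15 alternatives 10, 10 and 14 of the 24 members kept the sign of their difference in the 3 comparisons. For library number, leaving out a group's libraries gave 169 (without the 3p.1 duplex) to 1650 (without the controls) genes and 1 to 6 members, and 810 genes without the 5p duplex. The count of members present was 24 at a limit of 0.5 TPM and 19 at 5 TPM. With 8mer and 7mer-m8 matches alone, 1 member matched GCAGTGG, 1 GGCAGTG and 2 GGGGCAG. The cause of these shifts was not tested. Depth and 2 libraries per group limit what these values can show.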

Other observations

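Several genes outside the 37 followed the library number as SPARC did. They were chosen after their values were seen. POSTN, which encodes the matrix protein periostin, stood at 21.0 and 87.1 TPM in the control libraries, 21.7 and 92.5 TPM with the 5p duplex and 23.2 and 96.8 TPM with the 3p.1 duplex. Its log2 difference between libraries numbered 2 and 1 was 2.02 (SE 0.06, limma adjusted p = 0.000157, block fit), higher in 3 of 3 groups. Of the 31 further mesenchymal genes tested, 9 were higher in the libraries numbered 2 and 3 lower, where 5.81% and 3.58% of all genes were. LOX, a collagen cross-linking enzyme, was higher by 0.56 (SE 0.07, limma adjusted p = 0.0169). WWTR1, which encodes TAZ, was lower by -0.36 (SE 0.06, limma adjusted p = 0.0253).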
